A study of Rattus norvegicus with 38 samples.

Results

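Glutathione S-transferases are the enzymes that join glutathione to reactive compounds, and 9 of their genes were followed here in the lungs of smoke-exposed rats: Gsta1, Gsta2, Gsta4, Gstm1, Gstm2, Gstp1, Gstt1, Mgst1 and Mgst2. A gene was taken as measured where a probe set of the array was annotated with its symbol and no other. This held for 8 of the 9 listed genes, each with 1 probe set, among 14217 genes in all. Gsta2 appeared only on a probe set that also carries the symbol Gsta5 and is described last.

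The animals were N:NIH rats of 2 lines bred for low (LCR) or high (HCR) intrinsic running capacity. All were females aged 34 weeks. Exposure was to cigarette smoke or, for the sham groups, to room air, on 5 days of each week, and lungs were taken after 12 weeks. There were 12 LCR smoke, 7 LCR sham, 12 HCR smoke and 7 HCR sham animals, each with its own Affymetrix rat genome array made from about 25 mg of lung. LCR sham array 0445 carries only a tissue entry among its sample characteristics, and its age and sex were taken from the growth protocol shared by the series. The comparisons ask which transferases responded to smoke in either line, whether LCR and HCR lungs differed at the same exposure, and whether the response depended on the line.

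The transferases fall into soluble classes named alpha (Gsta), mu (Gstm), pi (Gstp) and theta (Gstt), and membrane-bound forms (Mgst) of the microsomal family. They detoxify electrophiles such as quinones, epoxides and the aldehydes of lipid peroxidation, and the conjugates are exported and processed into mercapturates. Several of their genes are known targets of the transcription factor NRF2, which binds antioxidant response elements, and of the aryl hydrocarbon receptor, which binds xenobiotic response elements. In lung, club and ciliated airway cells, alveolar type 2 cells and macrophages are all known to express members of the family.

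Promoters were searched for the cores of both elements, because the antioxidant response element of rodent Gst genes and the xenobiotic response element of Cyp1a1 are textbook sites of induction. RefSeq windows on GRCr8, from 250 bases before to 50 bases after the gene start, were at hand for 6 of the 8 measured genes. The letters searched on both strands were TGACNNNGC for the antioxidant element and GCGTG for the xenobiotic element. Of all 33469 windows, 12.1% held TGACNNNGC and 29.7% held GCGTG. The stretches below are shown because they hold the matches in 3 genes that changed with smoke in 1 or both lines, and capitals mark the matched letters.
Gstp1 (chr1:210769706-210769905, minus strand, bases -200 to -1): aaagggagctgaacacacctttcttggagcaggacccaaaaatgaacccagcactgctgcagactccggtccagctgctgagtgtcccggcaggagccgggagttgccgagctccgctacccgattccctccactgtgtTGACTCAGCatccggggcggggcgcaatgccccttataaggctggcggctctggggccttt
Gsta1 (chr9:31216483-31216512, minus strand, bases 21 to 50 after the start): aactcaggcaTGACTTTGCatttttcttct
Gsta4 (chr8:87947065-87947264, plus strand, bases -200 to -1): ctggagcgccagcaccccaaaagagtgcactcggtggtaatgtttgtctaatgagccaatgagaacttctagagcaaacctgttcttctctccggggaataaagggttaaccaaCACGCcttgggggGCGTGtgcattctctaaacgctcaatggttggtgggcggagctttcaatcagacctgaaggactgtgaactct

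The Gstp1 match to TGACNNNGC lies at bases -61 to -53, and GCGTG is matched on the opposite strand at -238 to -234 and at 31 to 35, both outside the stretch shown. The Gsta1 match lies at bases 31 to 39 after the start. Gsta4 holds GCGTG 3 times, at -210 to -206 and -86 to -82 on the opposite strand and at -73 to -69 on the same strand, of which the last 2 are shown. The windows of Gstm1, Gstm2 and Mgst1 held neither set of letters. These matches describe the letters in a short window, and binding was not measured.

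The exposure itself was visible on every array. Cyp1a1, the cytochrome P450 best known as a target of the aryl hydrocarbon receptor, had an intensity of 4364 ± 343 in LCR smoke, against 18.1 ± 17.7 in LCR sham lungs (SD, n = 12 and 7). In HCR it was 3607 ± 522 in smoke, against 8.72 ± 3.60 in sham lungs. Nqo1, a quinone reductase and NRF2 target, averaged 3694 ± 506 in LCR smoke and 924 ± 144 in LCR sham lungs. In HCR, Nqo1 averaged 3568 ± 741 in smoke and 689 ± 139 in sham lungs. The lung label fits the markers: the type 2 cell surfactant gene Sftpc and the club cell gene Scgb1a1 had group means between 10150 and 10680 in every group.

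Smoke and sham arrays also differed in other ways. The interquartile range of log2 values was 2.78 to 3.002 on LCR smoke and 2.96 to 3.04 on LCR sham arrays, and 2.74 to 2.94 on HCR smoke and 2.94 to 3.03 on HCR sham arrays. The heart muscle marker mean was 1.86 to 4.01 log2 above the mean of all arrays on 6 arrays: LCR sham 0442, HCR smoke 0410, 0414, 0415 and 0417, and HCR sham 0433, which also carried skeletal muscle and fat cell signal. These 6, a list set with earlier results of these data known, are left out together in an alternative below. HCR sham 0432 (1.43) and LCR sham 0440 (1.26) came next and stayed in, with group medians of -0.85 and -0.83. The difference of 3' and 5' probe sets, a sign of RNA quality, was 2.06 log2 for Actb and 1.199 for Gapdh on HCR sham 0432, and at most 1.08 and 0.39 on every other array. For Actb it was 0.59 to 0.73 on LCR smoke and 0.69 to 1.08 on LCR sham arrays, and 0.60 to 0.86 on HCR smoke and, without 0432, 0.63 to 0.83 on HCR sham arrays. Each group took its own block of the numbers in the sample titles. The labels do not say what these numbers stand for. Any order that they follow and the group cannot be told apart.

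Among the 8 transferases, smoke raised Gsta1, Gstp1 and Mgst2 in both lines and lowered Gstm2 in both. Mgst1 rose in LCR, and Gsta4 and Gstt1 fell in HCR. In LCR, 4 genes rose, 1 fell and 3 did not pass, where 50.6% of all 14217 genes passed (22.7% higher, 27.9% lower). In HCR, 3 rose, 3 fell and 2 did not pass, where 48.0% of all genes passed (17.7% higher, 30.4% lower). After centring each array on its median, 64.8% of the genes called in LCR and 53.1% of those called in HCR were higher under smoke, beside 44.8% and 36.8% as reported, and no transferase that passed changed sign. The median change of the 8 genes was 0.11 in LCR and 0.09 in HCR, beside medians over all genes of -0.0046 in LCR and -0.027 in HCR. A change is smoke minus sham of log2(intensity + 16), given with its standard error from limma, and a gene passed where its Benjamini-Hochberg adjusted p over all genes was below 0.05. In pieces of whole lung, fewer cells of a type and less RNA per cell cannot be told apart.

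**Figure D1:**
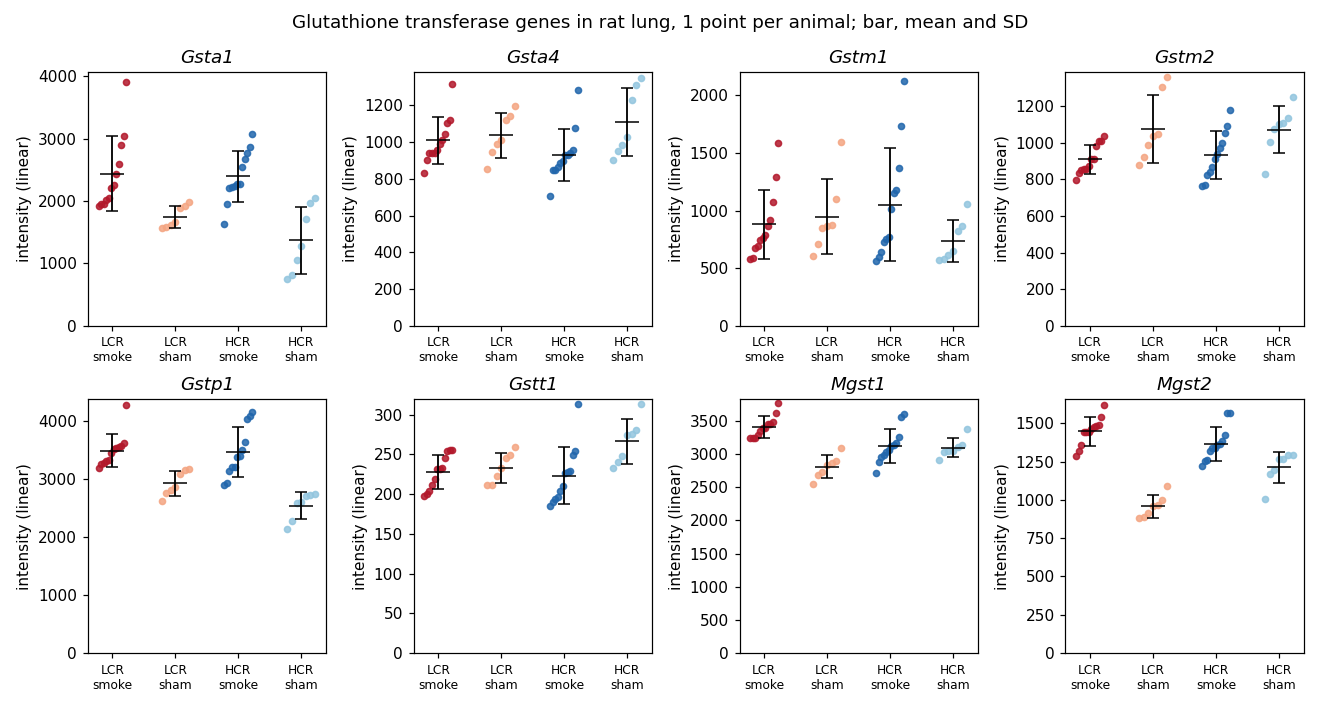
Intensity (linear, vertical axis from 0) of the 8 measured transferase genes in each animal, with LCR smoke, LCR sham, HCR smoke and HCR sham from left to right. Each point is 1 animal, sorted within its group, and bars give the mean and SD. The smoke and sham points do not overlap for Gstp1 in either line and for Mgst1 and Mgst2 in LCR.

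**Figure D2:**
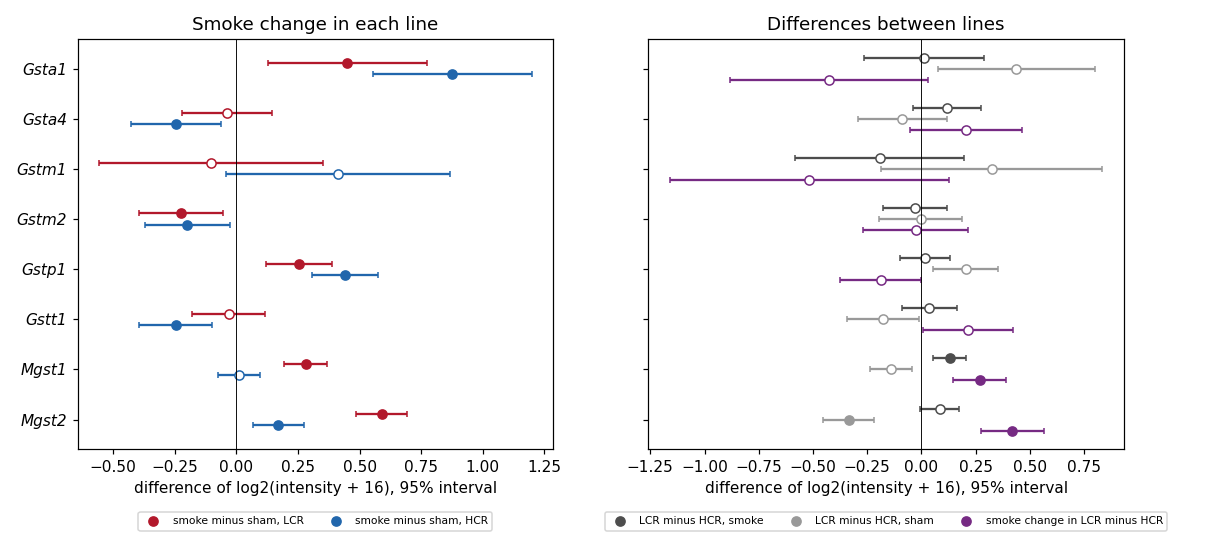
Differences of log2(intensity + 16) with their 95% intervals for each gene: on the left the smoke change in LCR (red) and HCR (blue), on the right the LCR minus HCR difference under smoke (dark grey) and sham (light grey) and how far the smoke change in LCR exceeded the HCR one (purple). Filled points passed an adjusted p of 0.05 over all genes and open points did not. Mgst1 and Mgst2 are the genes with a filled purple point.

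Gsta1 encodes an alpha-class subunit with broad detoxifying activity. Its intensity in LCR smoke lungs was 1921, 2228 and 3911 (lowest, median and highest animal, the order used throughout), against 1571, 1656 and 1992 in LCR sham lungs. In HCR smoke lungs it was 1633, 2274 and 3078, against 746, 1274 and 2047 in HCR sham lungs. All 12 smoke animals of each line lay above the mean of their sham group, and 9 in LCR and 10 in HCR lay above its highest animal, so that the groups overlapped slightly. The change was 0.45 ± 0.16 in LCR (adjusted p = 0.0181) and 0.88 ± 0.16 in HCR (adjusted p = 3.1e-05). HCR sham lungs spread most, with a coefficient of variation of 39.3% against 10.2% in LCR sham lungs. The Gsta1 call in LCR was lost in 2 of 18 alternatives. These had the arrays' interquartile range (adjusted p = 0.193) or the macrophage marker mean (0.242) as a covariate. Its smoke changes in the lines differed by -0.43, with a 95% interval of -0.88 to 0.03 (adjusted p = 0.301).

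Gsta4 encodes the alpha-class enzyme with high activity towards 4-hydroxynonenal, an aldehyde of lipid peroxidation. In HCR it had 709, 915 and 1284 in smoke lungs, against 904, 1029 and 1351 in sham lungs. It fell by 0.25 on the log2 scale (SE 0.09, adjusted p = 0.0232), with 6 of 12 smoke animals below every sham animal and 1 above the sham mean. In LCR it had 833, 975 and 1319 in smoke lungs, against 855, 1014 and 1198 in sham lungs, and the groups lay over each other. The LCR difference was -0.04 ± 0.09 (adjusted p = 0.73). The HCR call was lost in 6 of 18 alternatives, among them the macrophage covariate, where the change was -0.08 (adjusted p = 0.597), and the interquartile range, where it was -0.18 (adjusted p = 0.312). It was also lost without HCR sham 0439 (0.0754), 0434 (0.0726) or 0436 (0.0553). The genes nearest to Gsta4 over the 38 arrays, by the correlation of deviations from the group means, were Mbd5 (r = 0.68), the alveolar type 1 cell marker Ager (0.63) and Gypc (0.63). All 6 measured type 1 cell markers fell with smoke in HCR, by 0.39 for Ager and 1.09 for Akap5, and 5 fell in LCR. Their sum was 16440 to 19840 in LCR smoke and 18590 to 21960 in LCR sham lungs, and 14950 to 19790 in HCR smoke and 19430 to 22910 in HCR sham lungs. Their part in the Gsta4 values was not tested.

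Gstp1 encodes the pi-class enzyme, known for its activity towards electrophiles such as acrolein. Its intensity was 3197, 3485 and 4273 in LCR smoke lungs, against 2622, 2858 and 3174 in LCR sham lungs. In HCR smoke lungs it was 2899, 3393 and 4165, against 2143, 2604 and 2752 in HCR sham lungs. Every smoke animal of a line lay above every sham animal of that line, a separation found for 14.5% of all genes in LCR and 5.87% in HCR. The change was 0.25 ± 0.07 in LCR (adjusted p = 0.00161) and 0.44 ± 0.07 in HCR (adjusted p = 1.75e-06). Gstp1 kept its HCR call under all 18 alternatives and its LCR call under 17 of 18. Its smoke changes in the lines differed by -0.19 ± 0.09 (LCR minus HCR), with a 95% interval of -0.38 to 0 (adjusted p = 0.267).

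Gstm1 and Gstm2 encode mu-class subunits. Gstm1 had 584, 773 and 1587 in LCR smoke lungs, against 609, 865 and 1599 in LCR sham lungs. In HCR it had 564, 891 and 2126 in smoke lungs, against 567.8, 648 and 1060 in sham lungs. The groups overlapped nearly from end to end in LCR, and in HCR 5 of 12 smoke animals lay above every sham animal. The differences were -0.10 ± 0.22 in LCR (adjusted p = 0.722) and 0.41 ± 0.22 in HCR (adjusted p = 0.125), and neither passed. The standard error of Gstm1 is the widest of the 8 genes: its spread between animals within groups was 0.49 log2, against 0.09 for Mgst1 and a median of 0.12 over all genes.

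Gstm2 had 794, 891 and 1036 in LCR smoke lungs, against 879, 1034 and 1357 in LCR sham lungs. In HCR it had 765, 923 and 1177 in smoke lungs, against 827, 1101 and 1250 in sham lungs. No LCR smoke animal reached above the LCR sham mean, although the ranges overlapped, and in HCR 2 of 12 smoke animals lay above the sham mean. It fell by 0.22 (SE 0.08, adjusted p = 0.0259) in LCR and by 0.20 (SE 0.08, adjusted p = 0.0493) in HCR. Both calls are weak: that in HCR was lost in 9 of 18 alternatives and in 26 of the 38 fits that left out 1 array. That in LCR was lost in 7 of 18 alternatives, and without LCR sham 0442 (adjusted p = 0.101) or 0444 (0.0875).

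Gstt1 encodes a theta-class enzyme active on small halogenated compounds. In HCR it had 186, 218 and 313 in smoke lungs, against 233, 274 and 313 in sham lungs. It fell by 0.25 (SE 0.07, adjusted p = 0.00571), and 9 of 12 smoke animals lay below every sham animal. In LCR it had 197, 231 and 255 in smoke lungs, against 211, 233 and 259 in sham lungs, a difference of -0.03 ± 0.07 (adjusted p = 0.732). The HCR call was lost in 3 of 18 alternatives. These were quantile normalization (adjusted p = 0.0664), the arrays' interquartile range in the fit (0.198) and the macrophage covariate. The smoke changes in the lines differed by 0.21, with a 95% interval of 0.0051 to 0.42, which did not pass over all genes (adjusted p = 0.253). Its nearest gene was Gstt3, another theta-class gene, at r = 0.75.

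The smoke change differed between the lines for both microsomal genes. Mgst1 encodes a membrane-bound transferase and peroxidase of the endoplasmic reticulum and outer mitochondrial membrane. Its intensity was 3236, 3393 and 3766 in LCR smoke lungs, against 2551, 2830 and 3090 in LCR sham lungs, with no overlap. In HCR it was 2708, 3086 and 3596 in smoke lungs, against 2912, 3046 and 3373 in sham lungs, where the sham values sit inside the smoke range. Mgst1 rose by 0.28 ± 0.04 in LCR (adjusted p = 1.42e-06), and the HCR difference was 0.01 ± 0.04, with a 95% interval of -0.08 to 0.10 (adjusted p = 0.85).

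Mgst2 encodes a microsomal transferase that can also form leukotriene C4. It had 1290, 1453 and 1621 in LCR smoke lungs, against 881, 963 and 1088 in LCR sham lungs, again with no overlap. In HCR it had 1220, 1348 and 1570 in smoke lungs, against 1007, 1264 and 1293 in sham lungs, and 9 of 12 smoke animals lay above every sham animal. The rise was 0.59 ± 0.05 in LCR, a 1.504-fold change on this scale (adjusted p = 3.31e-11). In HCR it was 0.17 ± 0.05, or 1.13-fold (adjusted p = 0.00635).

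The smoke change was larger in LCR than in HCR for both microsomal genes, by 0.27 ± 0.06 for Mgst1 (adjusted p = 0.0171) and by 0.42 ± 0.07 for Mgst2 (adjusted p = 0.00235). These were 2 of 8 transferases, where 1.87% of all genes passed the same test (1.52% higher, 0.352% lower). Both stayed past the threshold in each of the 38 fits without 1 array. Without HCR sham 0432, it was 0.27 for Mgst1 (adjusted p = 0.0106) and 0.42 for Mgst2 (adjusted p = 0.00189), and limma called 768 genes for this difference in place of 266. The Mgst2 difference was lost in 1 of 17 alternatives and the Mgst1 difference in 5 of 17. Without the 6 arrays with muscle or fat signal, it was 0.24 for Mgst1 (adjusted p = 0.0809) and 0.41 for Mgst2 (adjusted p = 0.0268).

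The lines already differed in Mgst2 under sham. It was lower in LCR than in HCR sham lungs by -0.34 ± 0.06 (adjusted p = 0.000464), with 6 of 7 LCR sham animals below every HCR sham animal. Mgst2 was the 1 transferase of 8 to pass under sham, where 3.73% of all genes did (1.39% higher, 2.34% lower). Under smoke the line difference of Mgst2 was 0.08 ± 0.04 (adjusted p = 0.233). For Mgst1 the LCR minus HCR difference was -0.14 ± 0.05 under sham (adjusted p = 0.0946), and 0.13 ± 0.04 under smoke (adjusted p = 0.0275). Mgst1 was the 1 transferase of 8 to pass under smoke, where 6.32% of all genes did (4.61% higher, 1.70% lower), and all 12 LCR smoke animals lay above the HCR smoke mean. That call was lost in 4 of 18 alternatives and without HCR smoke 0419 (adjusted p = 0.0597), HCR smoke 0415 (0.0526) or LCR smoke 0427 (0.0551).

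All 8 transferases overlapped between the lines under each exposure, where 0.0844% of all genes did not overlap under smoke and 0.858% under sham. The remaining line differences did not pass. Under sham they ranged up to 0.44 ± 0.18 for Gsta1 (adjusted p = 0.176), with all 7 LCR sham animals above the HCR sham mean. Gstm1 was at 0.32 ± 0.25 (adjusted p = 0.553), with 5 of 7 LCR sham animals above the HCR sham mean. Gstp1 was at 0.20 ± 0.07 (adjusted p = 0.12), with 6 of 7 LCR sham animals above every HCR sham animal. Gstt1 was at -0.18 ± 0.08 (adjusted p = 0.248), with all 7 below the HCR sham mean. Under smoke the other differences lay between -0.19 for Gstm1 and 0.12 for Gsta4.

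Markers of several cell types changed with smoke alongside the microsomal genes. Over all genes, 50.6% passed in LCR and 48.0% in HCR. Of the macrophage markers 100% passed in LCR and 87.5% in HCR, and of the type 2 cell markers 75% and 37.5%. Of the neutrophil markers 80% passed in each line, and of the endothelial markers 100% in LCR and 83.3% in HCR. Of 10 macrophage markers, 8 were measured: 6 rose and 2 fell with smoke in LCR, and 5 rose and 2 fell in HCR. Their summed intensity was 14680 to 19350 in LCR smoke and 5970 to 9338 in LCR sham lungs, and 10090 to 18740 in HCR smoke and 7200 to 10360 in HCR sham lungs. In the limma test of a different smoke change between the lines, 2 of the 8 macrophage markers passed and 6 did not. Those that passed were Lgals3 (0.55 ± 0.14 larger in LCR, adjusted p = 0.0317) and Mrc1 (0.62 ± 0.16, adjusted p = 0.0361). The 8 values lay between 0.08 and 0.71. All 8 type 2 cell markers were measured, 6 of them rose in LCR and 3 in HCR, and none fell. Their sum was 41410 to 44080 in LCR smoke and 33450 to 39840 in LCR sham lungs, and 39440 to 44520 in HCR smoke and 36680 to 42340 in HCR sham lungs. Of 5 measured neutrophil markers, 4 rose in each line, and their sum was 4884 to 8180 in LCR smoke and 506.7 to 1299 in LCR sham lungs, and 1976 to 9123 in HCR smoke and 353.5 to 3822 in HCR sham lungs. Of 6 endothelial markers, 6 fell in LCR and 5 in HCR, with sums of 8807 to 10180 in LCR smoke and 10750 to 13920 in LCR sham lungs, and 8438 to 11240 in HCR smoke and 11800 to 13490 in HCR sham lungs. The macrophage markers that rose in HCR did so by 0.63 (Ctsd) to 1.09 (Cd68). Those that fell there changed by -0.57 (Chit1) and -0.77 (Cd163), and Mrc1 differed by 0.10 without passing.

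With the macrophage marker mean as a covariate, chosen after the data were seen, the difference between the lines' smoke changes was 0.18 for Mgst1 (adjusted p = 0.757) and 0.25 for Mgst2 (adjusted p = 0.676). In that fit limma called 0 genes for this difference, with 822 at an unadjusted p below 0.05. The Mgst2 difference between sham lungs was then -0.20 (adjusted p = 0.121). The marker mean itself did not overlap between LCR smoke and LCR sham lungs, so the covariate and the exposure are largely the same split of the arrays there. The part of any of these cells in the Mgst1 and Mgst2 values was not tested. Within the smoke groups, 0 of the 16 correlations of a transferase with the macrophage marker mean passed by the permutation test, with 5 at an unadjusted p below 0.05. Of these 5, r was positive for Mgst2 in HCR (0.68) and LCR (0.58) and for Mgst1 in HCR (0.60), with n = 12 each. It was negative for Gstm2 in HCR (-0.67) and Gsta1 in LCR (-0.57). Without the 2 farthest arrays the 5 values were, in this order, 0.46, 0.15, 0.26, -0.58 and -0.50.

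By likeness over the 38 arrays, the genes nearest to Mgst2 were Msrb1 (r = 0.82), a methionine sulfoxide reductase, Psat1 (0.73), an enzyme of serine synthesis, and Itih4 (0.70). For Mgst1 they were Pdzk1ip1 and Mreg (0.69 each) and Scp2 (0.66). For Gsta1 they were Map7d2 (0.69), Nkain1 (0.54) and Cacng2 (0.53). For Gstm2 they were Zc3h14 (0.75), Cfl2 (0.73) and Skp1 (0.73). For Gstp1 they were Prom1 (0.80), Pfn2 (0.796) and Pir (0.78). These correlations are of log2 deviations from the group means, between genes read on the same array from the same RNA.

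Gstm1 followed the ciliated airway markers of each lung piece. Its nearest genes were Drc12 (r = 0.98), named for the dynein regulatory complex of motile cilia, Arl6 (0.97), a ciliary small GTPase, and Rsph1 (0.97), a radial spoke protein on the ciliated marker list. Within smoke groups, 32 correlations were computed, of the 8 genes with an airway (club and ciliated) and a macrophage marker mean, and 3 passed. Gstm1 correlated with the airway mean in LCR smoke lungs at r = 0.89 (rho = 0.83, n = 12, permutation test, adjusted p = 0.00176) and in HCR smoke lungs at r = 0.96 (rho = 0.94, n = 12, permutation test, adjusted p = 0.00032). Without the 2 arrays farthest from the median, r was 0.84 in LCR and 0.94 in HCR smoke lungs. Gstp1 did so in HCR smoke lungs at r = 0.88 (rho = 0.86, n = 12, permutation test, adjusted p = 0.003627), and at 0.76 without 2 arrays. In LCR smoke lungs the r of Gstp1 was 0.745 (rho = 0.73, n = 12, permutation test, adjusted p = 0.05032), just short of passing, and 0.40 without 2 arrays.

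Against the 5 measured ciliated markers alone, r was 0.97 for Gstm1 in LCR and 0.98 in HCR smoke lungs (n = 12 each, permutation test, adjusted p = 0.00016 for both). For Gstp1 it was 0.68 in LCR smoke lungs (n = 12, permutation test, adjusted p = 0.03212), which rests on the 2 farthest arrays since r was 0.35 without them, and 0.82 in HCR smoke lungs (permutation test, adjusted p = 0.00576). Against the 7 measured club markers alone, r for Gstm1 was 0.80 in LCR and 0.93 in HCR smoke lungs (permutation test, adjusted p = 0.009333 and 0.00016). For Gstp1 it was 0.72 in LCR and 0.87 in HCR smoke lungs (permutation test, adjusted p = 0.03868 and 0.0036). Without the 2 farthest arrays these Gstp1 values were 0.32 and 0.80, beside 0.625 against the ciliated markers in HCR. The sum of the 5 ciliated markers was 2131 to 3599 in LCR smoke and 3488 to 4593 in LCR sham lungs, and 2320 to 4325 in HCR smoke and 3210 to 4261 in HCR sham lungs. Arrays with heart muscle signal lay on both sides of the median Gstm1 of their group. LCR sham 0442 had the highest Gstm1 of its group, and HCR smoke 0410 and 0415 had the highest values of theirs. HCR smoke 0417 lay above its group median, while HCR smoke 0414 and HCR sham 0433 lay below the medians of their groups. Next in heart muscle signal were HCR sham 0432 (1.43), with the highest Gstm1 of its group, and LCR sham 0440 (1.26), below its group median. The highest Gstm1 in LCR smoke lungs was on 0421, an array without heart muscle signal. The part of heart muscle in the Gstm1 values was not tested.

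**Figure D3:**
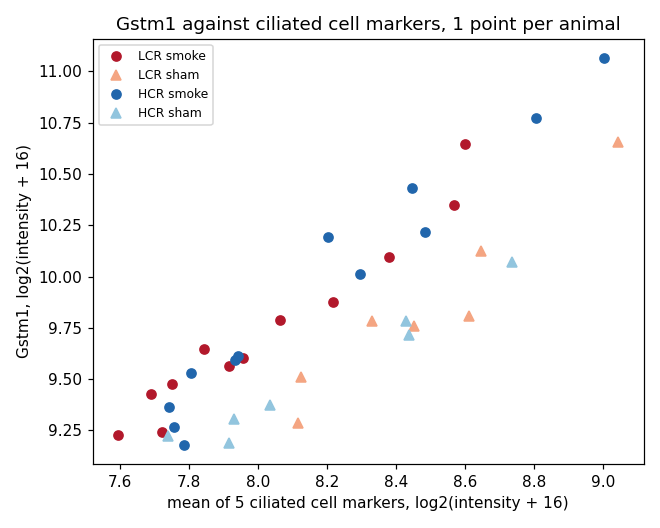
Gstm1 against the mean of the 5 measured ciliated cell markers, both as log2(intensity + 16), with 1 point per animal, circles for smoke and triangles for sham. Gstm1 rises with the markers in each group, and most smoke animals lie above sham animals with a like marker level.

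With ciliated markers as a covariate, the smoke change of Gstm1 passed in both lines, and these fits were chosen after the data were seen. With the mean of the 5 markers, the smoke change of Gstm1 was 0.46 ± 0.06 in LCR (adjusted p = 5.28e-07) and 0.40 ± 0.06 in HCR (adjusted p = 1.51e-06). Tppp3 and Dnai1 of that list themselves fell with smoke in LCR, and Tppp3 did in HCR, by 0.74 and 0.54. With the other 3 markers only (Foxj1, Rsph1 and Cfap126), the change was 0.24 ± 0.06 in LCR (adjusted p = 0.000504) and 0.18 ± 0.05 in HCR (adjusted p = 0.00677). With club and ciliated markers together it was 0.29 ± 0.10 in LCR (adjusted p = 0.0175) and 0.09 ± 0.10 in HCR (adjusted p = 0.454). The sign of the Gstm1 change in LCR turned with each of these covariates. Foxj1, Rsph1 and Cfap126 were themselves lower with smoke in LCR, at -0.34, -0.46 and -0.18, and none passed. In HCR they were at 0.22, 0.17 and 0.28, again without passing. The part of the markers' own changes in these fits was not tested.

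Some transferases also followed each other within the smoke groups. Of 56 pairs of genes and groups, 3 passed. Gstm1 and Gstp1 correlated in LCR smoke lungs at r = 0.79 (rho = 0.71, n = 12, permutation test, adjusted p = 0.0448), with r = 0.44 without 2 arrays, and the rho did not pass (adjusted p = 0.1814). In HCR smoke lungs they correlated at r = 0.89 (rho = 0.895, n = 12, permutation test, adjusted p = 0.00672), with r = 0.79 without 2 arrays. Gstm2 and Gstp1 correlated in LCR smoke lungs at r = 0.73 (rho = 0.92, n = 12, permutation test, adjusted p = 0.0448), and at 0.75 without 2 arrays. In HCR smoke lungs the r of that pair was 0.48 (n = 12, permutation test, adjusted p = 0.4363).

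The wider glutathione pathway gives the setting. Of 20 other measured transferases and relatives, 8 rose and 5 fell in LCR, and 6 rose and 6 fell in HCR, with medians of -0.03 and -0.09. That is 65% in LCR and 60% in HCR, beside 50.6% and 48.0% of all genes. Gsta3, an alpha-class gene, rose by 1.69 ± 0.32 in LCR and 1.32 ± 0.32 in HCR. Its intensity was 93.2, 226 and 472 in LCR smoke lungs, against 40.2, 56.7 and 129 in LCR sham lungs, so the groups overlapped at their edges. In HCR it was 131, 324 and 570 in smoke lungs, against 22.7, 124 and 308 in sham lungs. RefSeq lists Gsta3 and Gsta5 among the synonyms of the Gsta1 gene, so signal shared between alpha-class probe sets is possible and was not tested. Gstm7, a mu-class gene, fell by 0.66 in LCR and by 0.64 in HCR.

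Relatives of prostaglandin and leukotriene synthesis were mixed. Hpgds, the glutathione-dependent prostaglandin D synthase, rose by 0.71 ± 0.09 in LCR and 0.57 ± 0.09 in HCR. Ptges, a prostaglandin E synthase of the microsomal family, rose by 1.49 ± 0.23 in LCR and 0.63 ± 0.23 in HCR, and it was higher in LCR than in HCR smoke lungs by 0.96 ± 0.20 (adjusted p = 0.00318). Its intensity was low, at 67.3 ± 46.8 in LCR smoke and 22.7 ± 10.1 in HCR smoke lungs (SD, n = 12 each). The smoke changes of Ptges in the lines differed by 0.86 ± 0.33, which did not pass (adjusted p = 0.139). Alox5ap, which presents arachidonate to 5-lipoxygenase, rose by 0.56 ± 0.10 in LCR, and its HCR difference was 0.20 ± 0.10 (adjusted p = 0.0846). Ltc4s, the leukotriene C4 synthase, fell by 0.18 in HCR (adjusted p = 0.043), and its LCR difference was -0.13 ± 0.08 (adjusted p = 0.136). Clic1, a chloride channel protein with a transferase fold, rose by 0.51 ± 0.08 in LCR and 0.28 ± 0.08 in HCR.

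Of 12 genes that supply glutathione, 7 rose and 1 fell in LCR, and 8 rose and 1 fell in HCR, with medians of 0.38 and 0.24. Over all genes 22.7% rose in LCR and 17.7% in HCR. Gclc, the catalytic subunit of the rate-limiting glutamate-cysteine ligase, rose by 1.11 ± 0.17 in LCR and 1.27 ± 0.17 in HCR. The largest change on the list was that of Slc7a11, the cystine transporter, at 2.44 ± 0.43 in LCR and 2.36 ± 0.43 in HCR, and it is named here because of that value. The amino acid transporters Slc1a4 (0.84 in LCR, 0.83 in HCR), Slc1a5 (0.50 and 0.41) and Slc1a1 (0.59 and 0.30) rose as well. Cth, which makes cysteine from cystathionine, fell by 0.55 in LCR and by 0.63 in HCR. Slc3a2, the heavy chain that pairs with Slc7a11, and Ahcy, an enzyme of the methionine cycle, were lower in LCR than in HCR sham lungs, by -0.18 and -0.20.

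Of 15 genes of glutathione redox and NADPH supply, 9 rose and 4 fell in LCR, and 8 rose and 3 fell in HCR, with medians of 0.25 and 0.12. That is 86.7% in LCR and 73.3% in HCR, beside 50.6% and 48.0% of all genes. Malic enzyme (Me1, 0.85 in LCR and 0.69 in HCR), glutaredoxin (Glrx, 0.75 and 0.40), Pgd (0.64 and 0.51), transketolase (Tkt, 0.54 and 0.32) and transaldolase (Taldo1, 0.47 and 0.28) rose in both lines. The glutathione peroxidases Gpx7 (-0.32 in LCR, -0.40 in HCR), Gpx3 (-0.17 and -0.29) and Gpx4 (-0.21 and -0.17) fell in both lines. Gpx1 rose in both (0.25 in LCR, 0.12 in HCR), and Gpx2 rose in LCR (0.51), with an HCR difference of 0.015 (adjusted p = 0.92). Gpx8 fell by 0.22 in LCR (adjusted p = 0.00679). Tkt was higher in LCR than in HCR smoke lungs by 0.23 ± 0.07 (adjusted p = 0.0319).

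Of 14 genes of glutathione breakdown and mercapturate formation, 7 rose and 2 fell in LCR, and 4 rose and 3 fell in HCR, with medians of 0.20 and -0.04. The share that passed was 64.3% in LCR and 50% in HCR, beside 50.6% and 48.0% of all genes. Ggt1, the gamma-glutamyl transferase that starts the breakdown of conjugates outside the cell, rose by 0.88 ± 0.23 in LCR and 0.99 ± 0.23 in HCR. Chac2 rose by 0.30 in LCR and 0.33 in HCR. Ggct and Chac1 passed in LCR (0.38 and 0.31), with HCR differences of 0.09 and 0.0031. Lap3 passed in HCR (0.45), with an LCR difference of 0.26. Acy3, an aminoacylase of mercapturates, fell by 0.38 in LCR and by 0.39 in HCR, while Ggt5 fell by 0.36 in LCR, with -0.16 in HCR. Oplah fell by 0.29 and Acy1 by 0.23 in HCR, with -0.12 and -0.09 in LCR. Ggct was higher in LCR than in HCR smoke lungs by 0.24 ± 0.07 (adjusted p = 0.0385), and Dpep1, a dipeptidase, was lower in LCR than in HCR sham lungs by -0.42 ± 0.10 (adjusted p = 0.0121).

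Of 6 exporters of conjugates, Abcc4 rose by 0.80 ± 0.10 in LCR and 0.48 ± 0.10 in HCR, and Abcc5 by 0.19 ± 0.07 in LCR and 0.34 ± 0.07 in HCR. The other 4 did not pass in either line, so that 33.3% passed in each. Of 13 regulators, 7 rose and 0 fell in LCR, and 5 rose and 1 fell in HCR (53.8% and 46.2% passed, beside 50.6% and 48.0% of all genes), with medians of 0.20 and 0.12. Nfe2l2, which encodes NRF2, rose by 0.66 ± 0.04 in LCR and 0.68 ± 0.04 in HCR. Ahrr, the repressor of the aryl hydrocarbon receptor, rose by 2.11 ± 0.11 in LCR and 1.70 ± 0.11 in HCR, and was higher in LCR than in HCR smoke lungs by 0.46 ± 0.10 (adjusted p = 0.00335). Maff, a small MAF partner of NRF2, rose by 1.23 ± 0.12 in LCR and 0.82 ± 0.12 in HCR, while Mafk fell by 0.16 in HCR (adjusted p = 0.0435), with -0.02 in LCR (adjusted p = 0.834).

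Known targets of induction are given for scale. The highest change of the 8 transferases was 0.59 in LCR (Mgst2) and 0.88 in HCR (Gsta1), beside LCR and HCR changes of 1.98 ± 0.12 and 2.34 ± 0.12 for Nqo1, 3.66 ± 0.24 and 3.82 ± 0.24 for the aldehyde dehydrogenase Aldh3a1, and 7.13 ± 0.14 and 7.19 ± 0.14 for Cyp1a1. Of the 5 measured reference genes of induction, 4 rose in each line, and Ephx1, the microsomal epoxide hydrolase, fell by 0.37 in LCR (adjusted p = 0.047), with 0.11 in HCR (adjusted p = 0.573). By limma, 0 of the 85 measured genes of these 7 lists passed the test of a different smoke change between the lines, with 21 at an unadjusted p below 0.05.

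**Figure D4:**
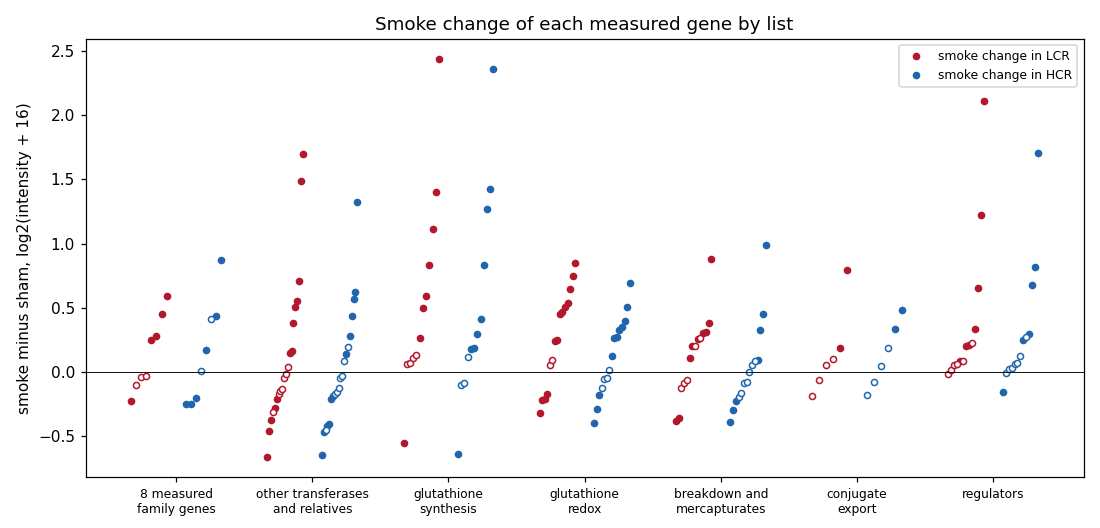
Smoke change, as the difference of log2(intensity + 16), of every measured gene of the 8 transferases and of 6 glutathione pathway lists, with LCR in red and HCR in blue. Each point is 1 gene, sorted by its value within a list and line, filled where it passed an adjusted p of 0.05 and open where it did not. The 8 transferases lie between -0.25 and 0.88, and glutathione synthesis reaches 2.44 in LCR.

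The probe set shared by Gsta5 and Gsta2 was dim. It read 23.4, 26.7 and 35.2 in LCR smoke lungs, against 21.0, 26.2 and 29.3 in LCR sham lungs. In HCR it read 25.6, 29.3 and 36.97 in smoke lungs, against 20.6, 24.4 and 27.2 in sham lungs. Tested with limma over all 31042 probe sets that are not controls, it rose by 0.19 ± 0.05 in HCR (adjusted p = 0.00273), and the LCR difference was 0.10 ± 0.05 (adjusted p = 0.105). No value can be given for Gsta2 alone.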

How the data were processed

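Lung RNA of 38 rats was measured on 1 Affymetrix array per animal. The authors deposited a linear intensity for each of 31099 probe sets (lowest 2.09, highest 11560), of which 57 were controls, 20826 had 1 gene symbol, 436 several and 9780 none in the platform annotation. How the scans were summarised and normalized, and with which software, was not given in the sources used here. They were taken to log2(intensity + 16) without normalizing them again, a scale that understates changes of low genes. For each gene the single-symbol probe set brightest on average over the arrays stood for it, leaving 14217 genes.

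A mean for each of the 4 groups was fitted to the 38 arrays with limma 3.58.1 (lmFit and eBayes, two-sided, 34 residual and 36.22 total degrees of freedom) in R 4.3.3, with Benjamini-Hochberg adjustment of p-values across all genes and a threshold of 0.05. Correlations used 100000 permutations, two-sided, in Python 3.11.15 (SciPy 1.17.1, pandas 2.3.3, NumPy 2.4.6), and figures matplotlib 3.10.9. Arrays correlated between 0.962 and 0.997, and no pair shared more than 0.0611% identical values. The labels describe animals, and the number of arrays limits the precision. The fit was tested on simulated data.

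The members and lists were chosen with earlier results of these data known. Named genes are the 8 measured members, other transferases that passed with at least 0.5 log2, up to 3 passing genes by p per direction of each other list and comparison, Nqo1, Cyp1a1 and Aldh3a1, and the 3 genes nearest to each member. Slc7a11, Ltc4s, Gpx1, Gpx2, Gpx8, Sftpc, Scgb1a1 and the cell markers named were chosen after their values were seen. Alternatives were another normalization, pseudocounts of 1 and 64, a filter, probe set rules, the arrays and covariates in the fit, and each array left out.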

Additional observations from a re-analysis of the deposited data

Results flagged for a closer look

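The smoke change differed between the lines for Mgst1, by 0.27 (LCR minus HCR, limma adjusted p = 0.0171), and for Mgst2, by 0.42 (adjusted p = 0.00235), by the test of the difference itself. HCR sham array 0439 had the lowest Mgst2 of its group, at 9.998 on the log2 scale, while the other 6 HCR sham arrays lay between 10.21 and 10.35. Its gap to the nearest array was 0.601 of the group's range, above Dixon's critical value of 0.568. Chance flags about 1 in 20 groups, and 16 groups were examined, with 1 such array found. These were the sham groups of each of the 8 genes, and the smoke groups of 12 arrays were not examined. The probe set shared by Gsta5 and Gsta2, which enters no count of the transferases, rose by 0.19 with smoke in HCR (adjusted p = 0.00273 over all probe sets).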

How the results depend on the processing

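The smoke rises of Gstp1, Mgst1 and Mgst2 in LCR kept their calls in 17 of 18 alternatives, those of Gsta1 and Gstp1 in HCR in all 18, and the Mgst2 rise in HCR in 17. The exception for each was the macrophage covariate, with 0.50 for Gstp1 (adjusted p = 0.0929), 0.12 for Mgst1 (0.482) and 0.27 for Mgst2 (0.156) in LCR, and 0.029 for Mgst2 in HCR (0.731). Over the 18 alternatives these changes lay between 0.23 and 0.50, 0.12 and 0.34, 0.27 and 0.65, and 0.029 and 0.25. The calls of Gsta4, Gstm2 and Gstt1 in HCR and of Gsta1 and Gstm2 in LCR depend on the setting, as do the line difference of Mgst1 under smoke and its difference in smoke change. The macrophage covariate and both ciliated covariates were chosen after seeing the data. The cause of the shifts was not tested. No paired analysis was possible because the numbers in the sample titles are not shared between groups. Dim signal limits the shared Gsta5 and Gsta2 probe set and Ptges, and the size of changes from dim sham levels, with LCR and HCR sham means of 18.1 and 8.72 for Cyp1a1, 8.77 and 10.6 for Slc7a11, 7.39 and 6.48 for Ahrr, and 17.0 and 22.4 for Hpgds, whose log2 changes depend on the constant of 16.

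Transferases called numbered 3 in HCR after quantile normalization, 3 in HCR and 3 in LCR with the interquartile range as a covariate, and 2 in HCR and 0 in LCR with the macrophage covariate. The counts over all 14217 genes moved as well, from 6830 in HCR and 7193 in LCR to 4735 and 35 with the macrophage covariate. In HCR they fell to 3023 with the interquartile range. Those of the comparisons between lines are given in the next paragraph. Between lines under smoke, 0 were called with the interquartile range, airway or macrophage covariate or without the 6 arrays with muscle or fat signal. Under sham, 2 were called after quantile normalization, after median-centring and with array weights, and 0 with the macrophage covariate. For the difference in smoke change, 1 was called without the 6 arrays, with the airway covariate and with either ciliated covariate, and 0 with the macrophage covariate.

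Genes called for smoke in HCR numbered 12154 over all probe sets and 3023 with the interquartile range, against 6830, and in LCR 13051 over all probe sets and 35 with the macrophage covariate, against 7193. Between lines under smoke there were 2860 with array weights, 365 with the interquartile range, 487 without the 6 arrays and 490 with the macrophage covariate, against 898. Under sham there were 815 after median-centring, 1203 over all probe sets, 233 with only the groups compared, 946 with array weights, 827 with the interquartile range and 114 with the macrophage covariate, against 531. For the difference in smoke change there were 549 after median-centring, 510 over all probe sets, 1537 with array weights, 562 with the Gapdh and 629 with the Actb covariate, 58 without the 6 arrays, 11 with the airway, 51 with the 5-marker and 48 with the 3-marker ciliated covariate and 0 with the macrophage covariate, against 266.

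Signs that turned belong to differences that did not pass in the fit reported. In the smoke change in HCR, Mgst1 was -0.0012 after quantile normalization and -0.059 with the macrophage covariate. In LCR, Gstt1 was 0.017 after quantile normalization, 0.026 after median-centring, 0.015 with the interquartile range, 0.05 with the 5-marker and 0.014 with the 3-marker ciliated covariate. Gsta4 was 0.019 after median-centring, 0.0041 with array weights, 0.0051 with the interquartile range and 0.32 with the macrophage covariate. Gstm1 was 0.033 without the 6 arrays, 0.29 with the airway, 0.46 and 0.24 with the 5-marker and 3-marker ciliated and 0.31 with the macrophage covariate. Between lines under smoke, Gsta1 was -0.0032 after quantile normalization, -0.026 with array weights and -0.0018 with the Gapdh covariate. Gstm1 was 0.064 without the 6 arrays, 0.19 with the airway, 0.0060 with the 5-marker and 0.029 with the 3-marker covariate, and Gstm2 was 0.0037, 0.033, 0.0061 and 0.0086 in the same fits. Under sham, Gstm2 was 0.0032 after quantile normalization, and Gstm1 was -0.0035 with the airway, -0.054 with the 5-marker and -0.032 with the 3-marker covariate. For the difference in smoke change, Gstm1 was 0.19 with the airway, 0.060 with the 5-marker and 0.062 with the 3-marker covariate. Gstm2 was 0.050 with array weights, 0.029 with Gapdh, 0.049 without the 6 arrays, 0.088 with the airway, 0.074 with the 5-marker, 0.071 with the 3-marker and 0.083 with the macrophage covariate.

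Leaving out each array in turn gave 81 to 768 genes for the difference in smoke change, lowest without HCR sham 0434 and highest without HCR sham 0432, the array with the widest 3' to 5' difference, and 314 to 830 between lines under sham, again without these arrays. Transferases called between lines numbered 0 to 1 under smoke and 1 to 2 under sham, with 2 only without LCR sham 0444. Signs turned for Gstm2 in the difference in smoke change (-0.070 to 0.034), under sham (-0.062 to 0.042) and between lines under smoke (-0.053 to 0.0029). They also turned for Gsta1 (-0.053 to 0.046) and Gstp1 (-0.011 to 0.041) between lines under smoke, for Mgst1 with smoke in HCR (-0.0079 to 0.032) and for Gstm1 with smoke in LCR (-0.20 to 0.033).

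The share of higher genes among those called between lines was 20.6% under sham after median-centring, against 37.3%, and 56.2% under smoke after quantile normalization, against 73.1%.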
